A study of Homo sapiens with 6 samples.

Results

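The genes described here sense foreign DNA and RNA inside human cells, pass the signal on, or are switched on by the interferon that follows. They were chosen by name, with a rule that uses no threshold on a measured value, though earlier results of these data were known. The list holds 35 genes, of which 33 had a row in the deposited table of 16655 genes. Expression of OAS1 and RSAD2 was not analysed here. By role the list comprised 5 nucleic acid sensors, 3 adaptors or kinases, 5 transcription factors, IFNB1 as the interferon itself, and 21 interferon-induced effectors, of which 19 had a row.

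RNA-seq was carried out on HEK-293T cells, an established line from human embryonic kidney in which SV40 large T antigen is expressed. Cells of the GFP group (n = 3) were transfected with pEGFP-C1, a plasmid that expresses GFP alone, and cells of the RfA1 group (n = 3, labelled RA1) with pEGFP-C1-RfA1, which expresses GFP joined to the squid protein reflectin A1. The study used this pair of groups to ask how the transcriptome differs when a protein that condenses into droplets is made in the cell. Both groups received plasmid DNA with a Lipofectamine reagent, were cultured for 24 h afterwards and were harvested with trypsin. Cells without plasmid are not among these libraries, so all levels given are those of plasmid-transfected cells. Transfection was transient, and the share of cells that took up the plasmid is not in the labels. Plasmid transcripts were not analysed here, so the transgene itself was not checked in the libraries.

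In the cytosol, cGAS (gene CGAS) binds double-stranded DNA and makes a cyclic dinucleotide that activates STING (STING1). RIG-I (DDX58) and MDA5 (IFIH1) bind viral RNA and signal through MAVS, while TLR3 detects double-stranded RNA in endosomes and PKR (EIF2AK2) stops translation when it binds such RNA. These routes, apart from that of PKR, meet at the kinase TBK1, which phosphorylates IRF3, and active IRF3 switches on IFNB1. Secreted interferon then acts through its receptor and a complex that contains STAT2 and IRF9 and binds a DNA element in the promoters of the induced genes. HEK-293T cells are known for a weak response to cytosolic DNA.

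The promoter element is shown first because it was found in a larger share of the induced genes than of the sensing machinery, although it does not separate them. The letters GAAA, any 2 bases and GAAA again, the core of the interferon-stimulated response element, were searched on both strands in the 250 bases before each RefSeq gene start (GRCh38.p14), with overlapping matches allowed. A gene with several starts was counted when the element lay before any of them. Of the 35 genes, 27 had a promoter entry. The element was found in 14 of the 17 induced effectors with an entry (82.4%) and in 1 of 9 sensors and signalling genes (11.1%), against 3.71% of all 27305 genes with an entry. ADAR, IFI35 and OAS1 were the induced effectors without it, and the RNA sensor IFIH1 was the 1 gene with it among the sensors and signalling genes. Stretches around the element follow for 7 of the 14 induced effectors, namely 3 IFIT genes and HERC5, whose libraries are compared in most detail, and the interferon-induced genes ISG15, IFITM1 and IFITM3, which are highly or moderately expressed in these cells. Capitals mark the element, which reads TTTC, any 2 bases and TTTC where it lies on the other strand, and all are written 5′ to 3′ in the direction of the gene.
IFIT1, chr10:89392477-89392559, plus strand: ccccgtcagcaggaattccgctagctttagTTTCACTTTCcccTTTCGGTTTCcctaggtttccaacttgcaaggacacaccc
IFIT3, chr10:89332405-89332517, plus strand: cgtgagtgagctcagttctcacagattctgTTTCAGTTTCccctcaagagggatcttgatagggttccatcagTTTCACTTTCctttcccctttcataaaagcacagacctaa
IFIT5, chr10:89414493-89414567, plus strand: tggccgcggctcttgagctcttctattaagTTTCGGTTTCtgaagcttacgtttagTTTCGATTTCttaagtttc
HERC5, chr4:88456964-88457084, plus strand: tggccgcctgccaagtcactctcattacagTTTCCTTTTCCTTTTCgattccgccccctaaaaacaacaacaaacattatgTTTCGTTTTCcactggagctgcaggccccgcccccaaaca
ISG15, chr1:1013354-1013429, plus strand: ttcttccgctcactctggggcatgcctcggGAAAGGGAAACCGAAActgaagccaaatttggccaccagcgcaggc
IFITM1, chr11:313970-314039, plus strand: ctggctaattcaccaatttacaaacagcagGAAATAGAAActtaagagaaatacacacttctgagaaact
IFITM3, chr11:320861-320942, minus strand: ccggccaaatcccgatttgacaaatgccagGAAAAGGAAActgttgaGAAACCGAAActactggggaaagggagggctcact
IFIT1, IFIT3, IFIT5, ISG15 and IFITM3 each carry 2 copies in these stretches, IFITM1 carries 1, and HERC5 carries 3. The 2 copies in ISG15 overlap, as do 2 of those in HERC5. A match describes the letters in this window and not occupancy by a factor.

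The depth was 10272306 to 11566284 estimated counts per library, and 13002 genes passed the filter on low counts. The line markers VIM (578 to 724 TPM) and KRT8 (150 to 204 TPM) were high in all 6 libraries, whereas the leukocyte gene PTPRC had 1 count in all libraries together. On the first principal component, which held 47.9% of the variance, RfA1 replicate 2 scored 9.9, near GFP replicates 2 and 3 (17.2 and 11.6), while RfA1 replicates 1 and 3 scored -15.7 and -20.5 and GFP replicate 1 scored -2.39. The loadings of this component followed the GC content of the transcripts (Spearman's rho 0.745 over genes). Where the call of a named gene changed without RfA1 replicate 2 or with a correction for GC content, that value is given too. The labels do not say whether replicates were separate cultures, so p-values measure the spread between these libraries, which may be technical.

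In GFP cells 4 of the 5 RNA and DNA sensors were at or near 1 TPM or lower, the exception being EIF2AK2 at 5.9 TPM. The adaptors, the kinase and the transcription factors lay between 2.94 TPM (IRF7) and 85.1 TPM (IRF3), and the induced effectors ranged from 0.35 TPM (OAS3) to 90.9 TPM (IFITM1). Levels are given as TPM, which is corrected for gene length and sums to 1000000 in every library, as mean ± SD over the 3 libraries. The median level of the 33 genes was 5.08 TPM, against 8.25 TPM for all genes of the table, and the median gene of the list stood at the 41.9th percentile. The medians were 0.997 TPM for the sensors, 10.7 TPM for the adaptors and kinase, 7.2 TPM for the transcription factors and 4.03 TPM for the induced effectors. In all, 7 genes had a mean under 1 TPM and 10 had a mean over 10 TPM.

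**Figure D1:**
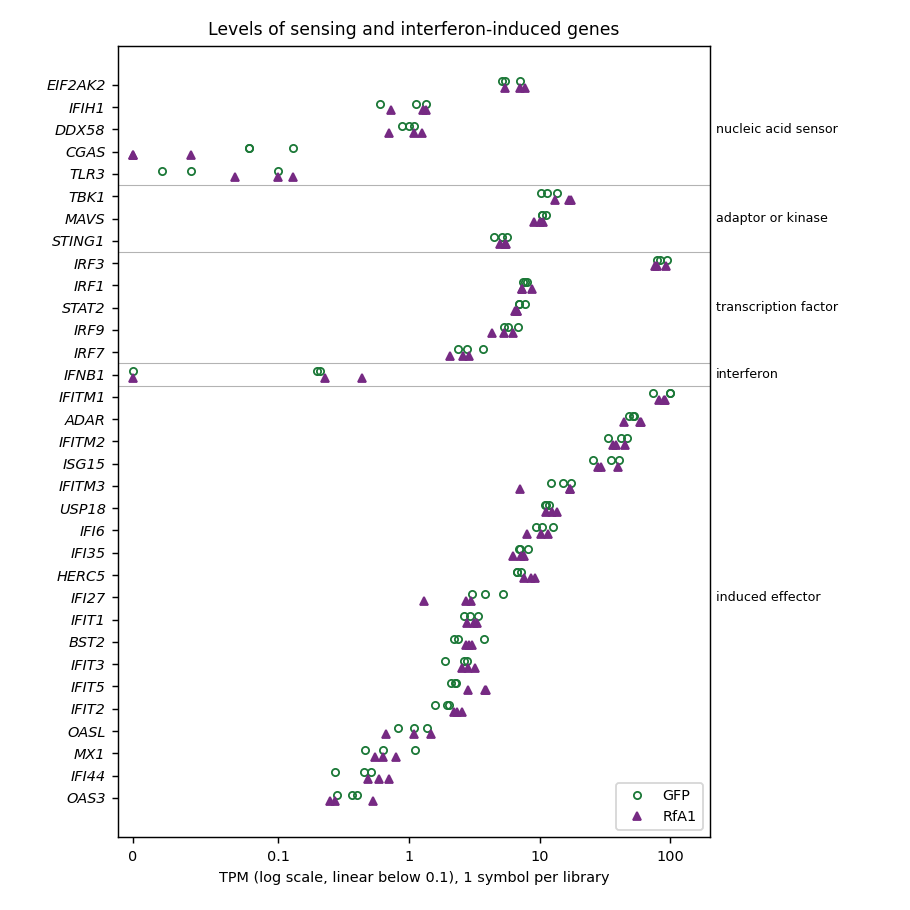
Level of each of the 33 genes in TPM (x axis, log scale, linear below 0.1) in every GFP library (open circles) and RfA1 library (triangles), grouped by role and ordered by the mean in GFP cells within each role. IRF3, IFITM1 and ADAR lie at or above 44 TPM in every library, whereas CGAS and TLR3 lie at or below 0.13 TPM.

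CGAS, the cytosolic DNA sensor, was close to absent. It had 3, 2 and 2 counts in GFP replicates 1 to 3 and 0, 1 and 0 counts in RfA1 replicates 1 to 3, or 0.0967 ± 0.0289 and 0.0133 ± 0.0231 TPM. The sums of 7 and 1 counts gave a depth-corrected ratio of 0.151, with an exact 95% interval of 0.00335 to 1.17 that covers counting error only. The GFP and RfA1 libraries did not overlap, but the interval includes 1, at a depth where 3 counts correspond to 0.265 to 0.286 CPM (counts scaled to a library of 1000000). TLR3, the endosomal RNA receptor, was as low, at 0.0533 ± 0.0416 TPM in GFP and 0.1 ± 0.03 TPM in RfA1 cells. Its sums of 8 and 13 counts gave a ratio of 1.72 (0.659 to 4.78).

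The cytosolic RNA sensors were present at about 1 TPM. DDX58 (RIG-I) stood at 0.89, 1.1 and 1 TPM in GFP and 1.1, 0.7 and 1.25 TPM in RfA1 cells. IFIH1 (MDA5) stood at 1.14, 0.6 and 1.35 TPM and at 1.28, 0.73 and 1.35 TPM, so the groups overlapped for both. The highest of the 5 sensors was EIF2AK2 (PKR), with 7.09, 5.19 and 5.41 TPM in GFP and 7.09, 5.41 and 7.73 TPM in RfA1 cells. DDX58 and IFIH1 did not differ from each other beyond the spread of their libraries, and EIF2AK2 lay above both in every library.

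Downstream of the sensors, IRF3, the factor that switches on IFNB1, stood at the 90.3th percentile of the table, with 78.35, 82.61 and 94.21 TPM in GFP and 76.74, 92.75 and 79.39 TPM in RfA1 cells. STING1, the partner of cGAS, was far above CGAS, at 4.46, 5.67 and 5.11 TPM in GFP and 5.51, 4.98 and 5.39 TPM in RfA1 cells. The groups overlapped for both IRF3 (log2 fold change -0.10, adjusted p = 0.717 by edgeR) and STING1 (-0.03, adjusted p = 0.931 by edgeR). MAVS and TBK1 did not differ beyond the spread of their libraries, at 10.7 ± 0.489 and 11.7 ± 1.75 TPM in GFP cells. Among the other factors, IRF1, an early interferon-induced factor, stood at 7.7, 8.01 and 7.4 TPM in GFP and 8.71, 7.38 and 7.32 TPM in RfA1 cells. STAT2 was at 6.96, 7.71 and 6.92 TPM and at 6.76, 6.5 and 6.73 TPM. IRF9 was at 5.96 ± 0.777 TPM in GFP cells, and IRF7, itself induced by interferon, was the lowest at 2.94 ± 0.662 TPM.

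IFNB1, which encodes interferon beta, had 0, 1 and 1 counts in GFP cells and 1, 2 and 0 counts in RfA1 cells. All 6 values were under 3 counts, so no fold change is given. At 24 h after transfection, IFNB1 transcripts were at the limit of detection in both groups.

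Of the induced effectors, IFITM1, ADAR and IFITM2 were highest. IFITM1, which restricts the entry of enveloped viruses, was at 73.64, 99.84 and 99.3 TPM in GFP and 91.45, 88.76 and 81.39 TPM in RfA1 cells. ADAR, which edits adenosine in double-stranded RNA and is also made without interferon, was at 52.25, 48.51 and 51.78 TPM in GFP and 58.56, 44.25 and 59.29 TPM in RfA1 cells. IFITM2, a close relative of IFITM1, was at 33.55, 46.73 and 41.83 TPM and at 36.12, 38.55 and 44.8 TPM. ISG15, a ubiquitin-like modifier, was at 33.5 ± 7.44 TPM in GFP cells. In GFP cells every IFITM1 value lay above every ADAR value, every ADAR value above every IFITM2 value, and IFITM2 and ISG15 overlapped. Between RfA1 and GFP cells the groups overlapped for all 4 of these genes. At the other end, the classical antiviral effectors were low, with MX1 at 0.737 ± 0.343 TPM, OASL at 1.1 ± 0.275 TPM, IFI44 at 0.41 ± 0.125 TPM and OAS3 at 0.35 ± 0.0624 TPM in GFP cells. The 4 IFIT genes, of a family with members that bind foreign RNA, lay between 1.86 (IFIT2) and 2.99 TPM (IFIT1). USP18, which removes ISG15 and restrains interferon signalling, was at 11.3 ± 0.409 TPM, IFI6 at 10.8 ± 1.77 TPM, IFI35 at 7.39 ± 0.715 TPM, HERC5, the ligase that attaches ISG15, at 6.89 ± 0.282 TPM and BST2, which tethers budding virus to the cell, at 2.78 ± 0.847 TPM.

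Some of these values are uncertain, since the tool that assigned reads shared between close paralogs or overlapping genes is not given in the sources used here. IFITM2, IFITM3, IRF1 and MX1 had estimated counts that were not whole in all 6 libraries. IFITM3, a close paralog of IFITM2, was at 12.25, 17.47 and 14.96 TPM in GFP and 16.93, 17.04 and 7.09 TPM in RfA1 cells. The sum of IFITM2 and IFITM3 was 45.8, 64.2 and 56.8 TPM in GFP and 53, 55.6 and 51.9 TPM in RfA1 cells, and RfA1 replicate 3 had the lowest value of IFITM3 and the highest of IFITM2 (44.8 TPM) in its group. The part of shared reads in these values was not tested.

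When RfA1 cells were compared with GFP cells, no gene of the list passed the threshold. Of the 33 genes, 28 passed the filter on low counts, and 0 of 28 had an adjusted p under 0.05 by the quasi-likelihood test of edgeR (Benjamini-Hochberg adjusted over all tested genes), against 10 of all 13002 tested genes (0.0769%). DESeq2 and limma-trend also called 0. The 5 genes that were not tested were CGAS, TLR3, IFNB1, IFI27 and IFI44. In these bulk libraries a change in few cells and a smaller change in every cell cannot be told apart.

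At an unadjusted p under 0.05, edgeR gave 4 of 28 genes (14.3%), with TBK1, IFIT5 and HERC5 higher and MAVS lower in RfA1 cells, against 13.9% of all tested genes (7.3% higher and 6.64% lower). The groups did not overlap in normalized CPM for 5 of 28 genes (17.9%), with IFIT5, IFIT2 and HERC5 higher and MAVS and STAT2 lower, against 17.9% of all tested genes (9.86% higher and 8.01% lower). Both shares are thus near those of all genes. The estimated log2 fold change (RfA1 over GFP) was positive for 10 and negative for 18 genes, and its median was -0.063 over the 17 induced effectors tested and -0.046 over the 11 sensors and signalling genes, against -0.0024 over all tested genes.

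For each tested gene taken singly, the precision limits the change that could have been missed. The intervals come from the edgeR fit without GC correction and leave out the genes too low to test. The 95% intervals of all 28 genes lay within 2-fold in either direction, from 0.507-fold for the lower bound of MX1 to 1.89-fold for the upper bound of IFIT5. For 15 of the 28 genes the interval lay within 1.5-fold. Among the intervals of the induced effectors, ADAR had 0.886 to 1.16-fold, IFIT1 0.796 to 1.25-fold, IFITM1 0.746 to 1.13-fold and ISG15 0.68 to 1.27-fold. The summed level of the 19 induced effectors was 251, 302 and 305 TPM in GFP and 291, 283 and 281 TPM in RfA1 cells, so the RfA1 libraries lay inside the range of the GFP libraries. Most of this sum comes from IFITM1, ADAR, IFITM2 and ISG15 (means of 90.9, 50.8, 40.7 and 33.5 TPM in GFP cells). It therefore says little about low effectors such as MX1 (0.737 TPM) or OAS3 (0.35 TPM).

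**Figure D2:**
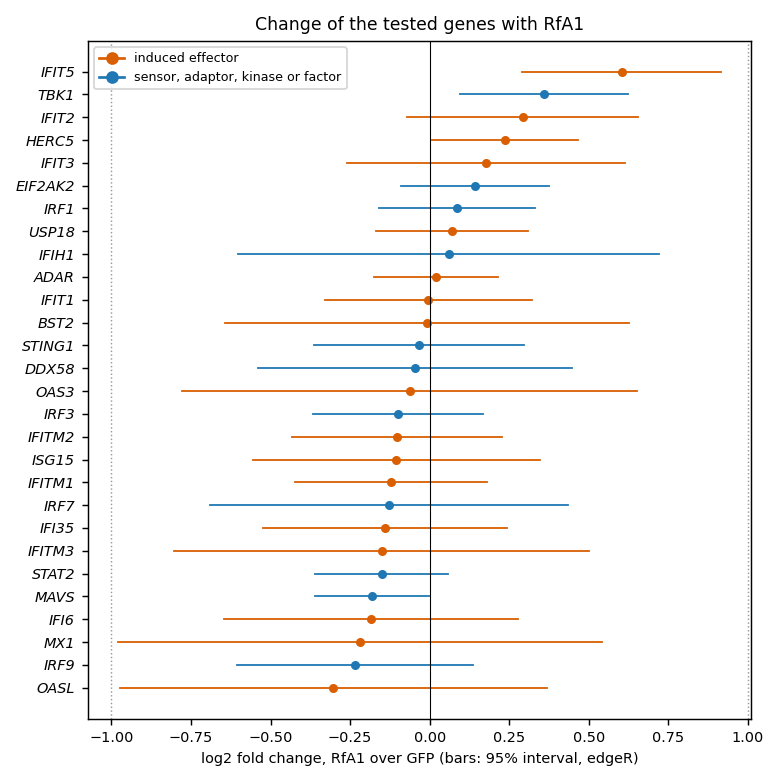
Log2 fold change of RfA1 over GFP for the 28 tested genes (x axis), with 95% intervals from edgeR over 3 libraries a group, coloured for induced effectors and for sensors and signalling genes. All intervals lie between the dotted lines at 2-fold in either direction, and those of IFIT5, TBK1, HERC5 and MAVS do not reach 0.

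IFIT5, an RNA-binding member of the IFIT family, had the largest estimated change. GFP cells had 6.21, 6 and 6.18 normalized CPM, and RfA1 cells had 9.92, 8.01 and 10 normalized CPM. All 3 RfA1 libraries lay above the GFP libraries, with replicate 2 the lowest of them. The log2 fold change was 0.60 (SE 0.14), or 1.52-fold (1.22 to 1.89), with an adjusted p of 0.179 by edgeR. Without RfA1 replicate 2, the log2 fold change was 0.70 and the adjusted p by edgeR was 0.00562, in a fit that called 20.1% of all genes tested (8.56% higher and 11.5% lower).

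The other IFIT genes had smaller estimates than IFIT5. Of these, IFIT1 and IFIT3 carry the promoter element shown above, and IFIT2 had no promoter entry. IFIT2 was at 4.41, 3.71 and 4.68 CPM in GFP and 5.46, 5.24 and 4.95 CPM in RfA1 cells, a log2 fold change of 0.29 (SE 0.17, adjusted p = 0.437 by edgeR). The groups were separated, although by less than the range within the GFP group. IFIT3 was at 2.88, 4.24 and 4.33 CPM and at 4.73, 4.1 and 4.1 CPM, with overlapping groups (log2 fold change 0.18, SE 0.20, adjusted p = 0.695 by edgeR). IFIT1 was at 8.55, 8.03 and 10.1 CPM and at 8.74, 10.1 and 7.72 CPM, with a log2 fold change of -0.0048 (SE 0.15, adjusted p = 0.987 by edgeR). The differences between the IFIT genes were not tested. Summed over the 4 genes, the level was 9.1, 8.93 and 10.4 TPM in GFP and 12.8, 11 and 11.9 TPM in RfA1 cells. The genes were grouped after their values were seen, and the sum was neither tested nor corrected for GC content. By gene, the GFP and RfA1 means were 2.22 and 3.53 TPM (IFIT5) and 1.86 and 2.37 TPM (IFIT2). For IFIT3 they were 2.42 and 2.87 TPM, and for IFIT1 2.99 and 3.1 TPM.

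**Figure D3:**
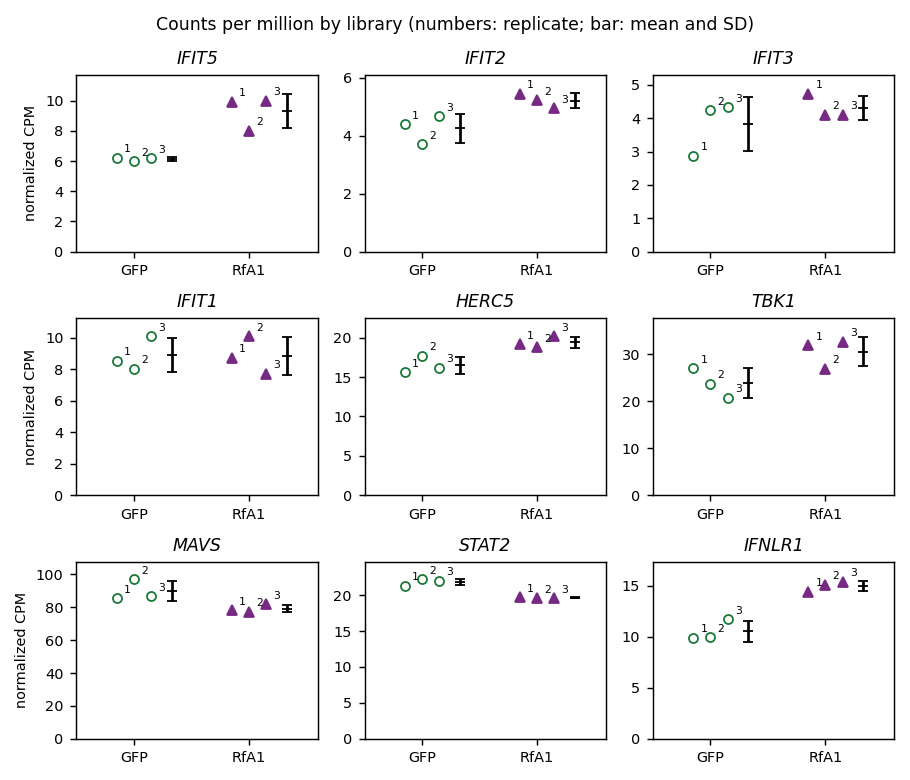
Normalized CPM (y axes, from 0) of 9 genes in each GFP library (circles) and RfA1 library (triangles), numbered by replicate, with the mean and SD (n = 3) at the side of each group. IFIT5, IFIT2, HERC5 and IFNLR1 are higher in every RfA1 library, MAVS and STAT2 are lower, and IFIT1, IFIT3 and TBK1 overlap between the groups.

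TBK1, the kinase on which the DNA and RNA routes converge, was at 27, 23.7 and 20.7 CPM in GFP and 31.9, 26.9 and 32.6 CPM in RfA1 cells. RfA1 replicate 2 lay just below GFP replicate 1, so the groups overlapped. The log2 fold change was 0.36 (SE 0.12), or 1.28-fold (1.07 to 1.54), with an adjusted p of 0.278 by edgeR. Without RfA1 replicate 2 it was 0.44, with an adjusted p of 0.0107 by edgeR. TBK1 and IFIT5 were the 2 of 28 genes of the list called in that fit, against 20.1% of all genes tested. With any other single library left out, the adjusted p of TBK1 by edgeR was 0.214 to 0.746.

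HERC5 was at 15.6, 17.7 and 16.2 CPM in GFP and 19.2, 18.8 and 20.2 CPM in RfA1 cells (log2 fold change 0.24, SE 0.10, adjusted p = 0.349 by edgeR). Every RfA1 library was higher than every GFP library. MAVS, the adaptor of RIG-I and MDA5, was at 85.6, 97 and 86.9 CPM in GFP and 78.4, 77.4 and 81.8 CPM in RfA1 cells, a log2 fold change of -0.18 (SE 0.08, adjusted p = 0.354 by edgeR). STAT2, which with IRF9 carries the interferon signal to DNA, was at 21.3, 22.2 and 22 CPM and at 19.7, 19.6 and 19.6 CPM (log2 fold change -0.15, SE 0.10, adjusted p = 0.470 by edgeR). For MAVS and STAT2 all RfA1 libraries lay below the GFP libraries in normalized CPM. In TPM this held for STAT2 only. MAVS overlapped there, at 10.44, 11.25 and 10.37 TPM in GFP and 10.02, 9.02 and 10.53 TPM in RfA1 cells. IRF9 (-0.23, SE 0.17, adjusted p = 0.528), EIF2AK2 (0.14, SE 0.11, adjusted p = 0.538), OASL (-0.30, SE 0.31, adjusted p = 0.652) and IFIT3, above, completed the 10 genes with the smallest p by edgeR, all with overlapping groups.

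IRF9 was at 6.66, 5.91 and 5.3 CPM in GFP and 5.82, 4.38 and 4.95 CPM in RfA1 cells. EIF2AK2 was at 42.1, 36.8 and 38.4 CPM and at 44.8, 37.4 and 47.4 CPM, with RfA1 replicate 2 again nearest to the GFP libraries. OASL, at 1.08, 1.5 and 1.59 CPM and 1.27, 0.858 and 1.24 CPM, had the largest negative estimate of the list and one of its widest intervals (0.509 to 1.29-fold). Of the genes too low to test, IFI27 had 25 counts over the GFP and 17 over the RfA1 libraries (depth-corrected ratio 0.718, exact interval 0.364 to 1.38), and IFI44 had 15 and 20 counts (1.41, 0.685 to 2.96).

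The estimated changes followed the GC content of the transcripts, in this list as in all genes. Across the 28 genes, Spearman's rho between log2 fold change and GC content was -0.585, and across 12917 tested genes with a known GC content it was -0.539, where genes share the same 6 libraries and are not independent. IFIT5 and TBK1 had the highest estimates and transcripts of low GC content (37.4% and 39.3%). With each library's trend over GC content removed, edgeR called 0 of 28 genes of the list, against 187 of all genes (1.44%). For IFIT5 the estimate was then 0.49 on the log2 scale (adjusted p = 0.0626 by edgeR), and for TBK1 it was 0.26 (adjusted p = 0.160). The medians became 0.0022 for the induced effectors and 0.024 for the sensors and signalling genes, so the sign of both turned.

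**Figure D4:**
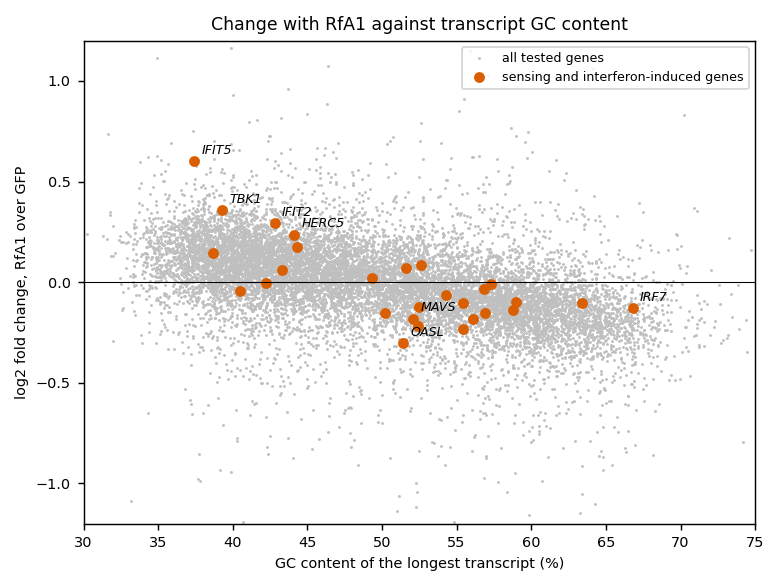
Log2 fold change of RfA1 over GFP (y axis) against the GC content of the longest transcript in percent (x axis), for all tested genes (grey) and for the genes of the list (orange), with 13 genes outside the axes. The genes of the list lie within the cloud of all genes and share its fall from low to high GC content, with IFIT5 and TBK1 at the upper left.

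Further genes of the same pathways were read from 5 lists written from general knowledge, with 113 genes, of which 109 had a row and 90 were tested. None of the 90 was called by edgeR, DESeq2 or limma-trend. At an unadjusted p under 0.05, edgeR gave 5 higher and 5 lower (11.1%, against 13.9% of all tested genes). Without RfA1 replicate 2, 16 of the 90 were called by edgeR, 7 higher and 9 lower, against 20.1% of all tested genes.

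Among 14 receptors and JAK-STAT components, all tested, 3 were higher and 1 lower at the unadjusted threshold, and the median log2 fold change was 0.13. Over all tested genes, 7.3% were higher and 6.64% lower at this threshold, and the median was -0.0024. This list was not tested as a set. IFNLR1, the specific chain of the interferon lambda receptor, was at 9.89, 9.97 and 11.7 CPM in GFP and 14.4, 15.1 and 15.4 CPM in RfA1 cells. All RfA1 libraries, replicate 2 included, were above the GFP libraries. Its log2 fold change was 0.51 (SE 0.12), or 1.42-fold (1.19 to 1.7), with an adjusted p of 0.179 by edgeR. With the GC trend removed it was 0.57 with an adjusted p of 0.0111 by edgeR. IFNLR1 was the 1 gene of the 90 called in that fit, which called 1.44% of all tested genes. Without RfA1 replicate 2 its adjusted p was 0.0140 by edgeR. IFNGR1, a chain of the interferon gamma receptor, was at 36.9, 33.7 and 33.4 CPM and at 43.9, 39.7 and 45 CPM (log2 fold change 0.31, SE 0.09, adjusted p = 0.253 by edgeR, and 0.0117 without RfA1 replicate 2). The IFNGR1 estimate with the GC trend removed was 0.21 (adjusted p = 0.144 by edgeR).

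Of 33 partners in RNA and DNA sensing, 27 were tested, with 1 higher and 3 lower at the unadjusted threshold and a median of -0.059. The shares of all tested genes at this threshold were 7.3% higher and 6.64% lower. G3BP1, a core protein of stress granules that also assists cGAS and RIG-I, was at 181, 164 and 172 CPM in GFP and 217, 199 and 227 CPM in RfA1 cells (log2 fold change 0.31, SE 0.08, adjusted p = 0.221 by edgeR, and 0.00313 without RfA1 replicate 2). OPTN, an autophagy receptor and substrate of TBK1, was at 14.4, 13.9 and 16.4 CPM and at 12, 12.5 and 10.5 CPM (log2 fold change -0.35, SE 0.12, adjusted p = 0.278 by edgeR, and 0.0443 without RfA1 replicate 2). In both, the groups did not overlap. With the GC trend removed, neither was called by edgeR (G3BP1 0.21, adjusted p = 0.0624, and OPTN -0.41, adjusted p = 0.0875). Of 39 further interferon-stimulated genes, 37 had a row and 25 were tested, with 1 higher and 1 lower at the unadjusted threshold and a median of -0.10. The higher gene was ZC3HAV1, which binds CpG-rich viral RNA, at 48.1, 46.8 and 47.9 CPM in GFP and 56.3, 49.7 and 59.1 CPM in RfA1 cells (log2 fold change 0.21, SE 0.09, adjusted p = 0.347 by edgeR, and 0.0265 without RfA1 replicate 2). The lower gene was PHF11 (log2 fold change -0.82, SE 0.30, adjusted p = 0.295 by edgeR), which had -1.14 and an adjusted p of 0.0302 without RfA1 replicate 2. PHF11 was at 2.61, 1.77 and 2.12 CPM in GFP and 1, 1.72 and 0.953 CPM in RfA1 cells, with RfA1 replicate 2 almost level with GFP replicate 2. Its estimated counts were not whole in any library, so the part of shared reads is uncertain here too. With the GC trend removed, ZC3HAV1 had 0.15 (adjusted p = 0.291) and PHF11 -0.89 (adjusted p = 0.153), both by edgeR.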

How the data were processed

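The authors deposited 1 table of 16655 genes for 6 libraries. It gives estimated counts, left without normalization by the authors, of which 7.39% to 8.02% per library were not whole, the authors' TPM, and the authors' FPKM, which were used as an alternative only. The submitters' processing notes name HISAT and GRCh38.p13, and the counting tool is not given in the sources used here. Averages deposited beside them were not used.

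Groups came from the sample labels. Estimated counts were rounded, filtered with filterByExpr (minimum count 10, minimum total 15), normalized by TMM and compared with the robust quasi-likelihood test of edgeR 4.0.16 in R 4.3.3, two-sided, with Benjamini-Hochberg adjustment over 13002 genes and a threshold of 0.05. Normalized CPM use the TMM library sizes. The biological coefficient of variation was 8.83%. Intervals on ratios of summed counts are exact at 95%. Alternatives were DESeq2 1.42.0, limma-trend (limma 3.58.1) on log2(TPM + 1), other scalings and filters, the replicate number as a block, each library left out, and a GC correction (an offset from a 5-degree spline in each library, with GC content from transcripts for 98.3% of genes). The edgeR script was tested on simulated data. Promoters came from RefSeq (GRCh38.p14). The genes and lists were chosen with earlier results of these data known. Values in every library were given for the 10 genes with the smallest p and the 3 with the highest TPM in each role, and of each further list for the 2 genes with the smallest p. Gene groups that go beyond this rule, such as the IFIT family, were named after their values were seen.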

Additional observations from a re-analysis of the deposited data

How the results depend on the processing

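With 10 genes called among all by edgeR, the count was 33 (DESeq2), 6 (upper-quartile normalization, 4 higher and 2 lower against 8 and 2), 20 (no filter on low counts, 12 higher and 8 lower), 4 (limma-trend, 4 higher), 187 (GC correction), 1812 (unadjusted p) and 0 to 2636 with a library left out, the highest without RfA1 replicate 2. The count of 0 for the 28 sensing and induced genes became 4 (unadjusted p) and 0 to 2 with a library left out. The count of 0 for the further pathway genes became 1 (GC correction), 10 (unadjusted p) and 0 to 16 with a library left out. The cause was not tested.

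With the replicate number as a block, edgeR called 625 of all genes (309 higher and 316 lower), 2 of the 28 genes (IFIT5, adjusted p = 0.0248, and TBK1, adjusted p = 0.0437) and 4 further pathway genes, and with block and GC correction 471 (307 higher and 164 lower), 1 and 3. The labels do not say that equal numbers mark a shared culture or day, so the numbers were not taken as pairs. Deviations of same-numbered libraries correlated at 0.212, 0.373 and -0.156, and 3 of 6 libraries correlated best with their own number. With 3 libraries a group, these values cannot decide whether the numbers mark pairs.

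The median log2 fold change of the induced effectors ran from -0.1082 to 0.0312 with a library left out. That of the sensors and signalling genes was 0.0057 (limma-trend), 0.0241 (GC correction), 0.0253 (GC correction with block) and -0.1359 to -0.0320 with a library left out. The median level percentile in GFP cells ran from 40.8 to 42.8 with a library left out. Of 419 values of single genes under the alternatives, 414 stayed on their side of the threshold and 5, all of IFIT5 or TBK1, passed it. Of the 28 genes, 15 kept the sign of their estimate in every fit. Depth limits CGAS, TLR3, IFNB1, IFI27 and IFI44, which were tested only with no filter on low counts, where 0 of 33 genes were called.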

Other observations

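Of 13 genes that dispose of self nucleic acids, 12 were tested, and 0 were called by edgeR with Benjamini-Hochberg adjustment, by DESeq2 or by limma-trend. At an unadjusted p under 0.05 edgeR also gave 0, against 13.9% of all tested genes. Without RfA1 replicate 2, edgeR called 2 of the 12, both lower, against 20.1% of all tested genes (8.56% higher and 11.5% lower). The median level of the disposal genes in GFP cells was 26.1 TPM, with TREX1, a DNA exonuclease, lowest at 0.18 TPM. RNASEH2A, the catalytic subunit of the nuclease that removes RNA from DNA hybrids, was at 188.47, 178.68 and 173.83 TPM in GFP and 166.09, 174.66 and 171.34 TPM in RfA1 cells (log2 fold change -0.14, SE 0.08, adjusted p = 0.454 by edgeR). SKIV2L, a helicase of the cytosolic RNA exosome, was at 71.2, 74.7 and 71 CPM and at 59.2, 71.1 and 59.9 CPM (log2 fold change -0.19, SE 0.09, adjusted p = 0.379 by edgeR, and 0.0204 without RfA1 replicate 2), with RfA1 replicate 2 level with the GFP libraries. Of 14 antigen presentation genes, whose median was 18.3 TPM with PSMB8 lowest at 0.0967 TPM, 12 were tested, with 0 called by these tools and 0 at the unadjusted threshold by edgeR. HLA-C, a class I heavy chain, was at 322, 374 and 369 CPM in GFP and 305, 377 and 288 CPM in RfA1 cells (log2 fold change -0.14, SE 0.11, adjusted p = 0.562 by edgeR). Without RfA1 replicate 2 its log2 fold change was -0.26 with an adjusted p of 0.0222 by edgeR, the 1 call among the 12. Estimated counts of HLA-C were not whole except in RfA1 replicate 1, so the part of shared reads is uncertain. With the GC trend removed, HLA-C had 0.03 (adjusted p = 0.857) and SKIV2L -0.08 (adjusted p = 0.603), both by edgeR. B2M, the class I light chain, was at 150, 129 and 123 CPM and at 147, 127 and 152 CPM (log2 fold change 0.08, SE 0.10, adjusted p = 0.719 by edgeR).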
